A study of Mus musculus with 13 samples.

Results

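The genes described here encode the machinery that moves chromosomes in mitosis: 14 mitotic kinesins, 14 genes of the centromere and inner kinetochore, 10 of the outer kinetochore, 10 of the spindle checkpoint and of anaphase control, and 9 of the spindle, the midzone and cytokinesis. They were chosen by symbol and function, but with earlier results of these data known. All 57 were found among the 57010 genes listed and passed the filter on low counts, which kept 15034 genes. RNA of wild-type mouse embryonic fibroblasts (MEFs), primary cells grown from mid-gestation embryos, was sequenced in 4 groups. Each group had cells labelled as mice 4, 5 and 6, with the same numbers in every group. Control MEFs were not given etoposide. Senescent cells (SnCs) had received 2 μM etoposide, a topoisomerase inhibitor that breaks DNA, for 24 h and were kept for 5 days more. The FV100 and FV300 groups were such SnCs that received Fucoidan-FV, a sulfated sugar polymer from a brown seaweed (Fucus vesiculosus), at 100 or 300 μg/mL over the 12 h before RNA was taken. No group of control MEFs with fucoidan was analysed here, so each fucoidan comparison holds within SnCs.

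In mitosis each chromosome carries a pair of kinetochores, protein assemblies built on centromeric chromatin that contains the histone variant CENP-A. The inner kinetochore binds that chromatin, and the outer kinetochore, with the NDC80 complex at its core, grips spindle microtubules. Kinesins slide, bundle and shorten the microtubules, the spindle checkpoint holds back anaphase until every kinetochore is attached, and centralspindlin and its partners then divide the cell. Many of these genes are transcribed mainly in G2 and mitosis, through promoter elements called the CHR (cell cycle genes homology region) and the CCAAT box, and proliferating fibroblasts express them while arrested cells largely do not.

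The proximal promoters were read from GRCm39, from 250 bases before to 30 bases into the transcript that GENCODE M39 marks as canonical. The CHR was searched as TTTGAA or TTCGAA, the CCAAT box as CCAAT and an E2F site as TTCCCGC or TTCGCGC, each on both strands. CHR letters stood in 25 of the 57 promoters (43.9%), against 14.8% of the promoters of the 13447 protein-coding genes tested. CCAAT letters stood in 61.4% against 38.5%, and both elements in 33.3% against 6.23%. E2F letters were rarer than among all promoters, in 1.75% against 9.02%, the only holder being Hmmr. Among transport and other kinesin genes outside the 57 the CHR letters stood in 6.67% of 30 promoters. The promoters of the 44 genes that passed the thresholds for a fall in SnCs held CHR letters in 45.5%, and those of the 13 that did not pass in 38.5%. As 56 of the 57 genes had a negative fold change, this does not compare falling with unchanged genes. The promoters of Hjurp and Racgap1, which fell in SnCs, and of Ckap5 and Bub3, which kept most of their RNA, are shown because all 4 hold both elements, whose letters are in capitals. Hjurp lies at chr1:88205376-88205655 and Racgap1 at chr15:99549508-99549787, both on the minus strand, and Ckap5 at chr2:91356852-91357131 and Bub3 at chr7:131161832-131162111, both on the plus strand.
Hjurp: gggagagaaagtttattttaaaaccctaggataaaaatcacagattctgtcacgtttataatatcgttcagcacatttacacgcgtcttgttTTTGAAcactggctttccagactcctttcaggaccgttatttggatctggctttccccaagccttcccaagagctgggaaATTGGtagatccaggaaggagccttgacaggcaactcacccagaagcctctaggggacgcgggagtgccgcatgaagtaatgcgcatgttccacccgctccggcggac
Racgap1: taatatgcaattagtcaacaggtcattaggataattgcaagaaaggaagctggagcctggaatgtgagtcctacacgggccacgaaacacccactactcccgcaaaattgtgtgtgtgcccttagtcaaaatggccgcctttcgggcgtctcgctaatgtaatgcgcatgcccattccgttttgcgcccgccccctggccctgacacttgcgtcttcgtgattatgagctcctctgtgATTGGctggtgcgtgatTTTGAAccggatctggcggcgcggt
Ckap5: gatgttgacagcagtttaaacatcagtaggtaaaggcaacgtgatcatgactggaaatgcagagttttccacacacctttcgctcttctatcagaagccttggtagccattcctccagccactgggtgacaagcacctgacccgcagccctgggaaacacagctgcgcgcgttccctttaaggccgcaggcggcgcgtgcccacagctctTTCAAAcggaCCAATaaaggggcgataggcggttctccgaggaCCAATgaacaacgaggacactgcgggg
Bub3: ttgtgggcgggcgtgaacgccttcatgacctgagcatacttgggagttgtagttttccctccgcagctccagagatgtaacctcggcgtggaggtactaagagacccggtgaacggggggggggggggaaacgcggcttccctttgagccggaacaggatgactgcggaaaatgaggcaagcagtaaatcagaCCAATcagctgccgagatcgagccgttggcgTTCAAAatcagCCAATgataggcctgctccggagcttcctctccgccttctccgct
Counted from 1 at the first transcribed base, with the base before it at -1, the CHR letters began at -158 in Hjurp, 6 in Racgap1, -40 in Ckap5 and -26 in Bub3. The first CCAAT letters began at -78, -12, -30 and -57 in the same order, and Ckap5 and Bub3 each held another, at 4 and -15. The elements lay farther apart in Hjurp than in the other promoters. The windows of Kifc1, Nuf2 and Mad2l1, which also fell, held none of the letters searched. A match is a stretch of letters and not a tested site.

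The total count per library was between 22782536 and 31278750, and the libraries 5(1) and 5(2) of control mouse 5 were summed. Cdkn1a and Cdkn2a, the cyclin-dependent kinase inhibitors used as senescence markers, were higher in SnCs than in controls by 1.82 and 2.46 on the log2 scale (adjusted p = 6.8e-05 and 7.24e-05), with every senescent value above every control value. The summed level of 10 fibroblast markers was 31846 to 53789 CPM (counts scaled to library size) over all samples. Of these 10 genes 2 were called higher in SnCs than in controls and 0 lower, where 4.47% of all genes were called higher. Their log2 fold changes ranged from -0.65 to 3.95. Lum, 1 of the 2, lost its call with the mouse as a block (adjusted p = 0.0638). Macrophage markers summed to 0.564 to 4.57 CPM in controls, 2.88 to 13.7 in SnCs, 6.14 to 14.1 in FV100 and 4.46 to 11.2 in FV300, and the 7 tested were all higher in SnCs than in controls (median log2 fold change 2.09, 3 at an unadjusted p under 0.05, 0 called). Endothelial markers summed to 1.32 to 2.04 CPM in controls, 1.47 to 3.3 in SnCs, 5.92 to 11.7 in FV100 and 5.23 to 8.36 in FV300, and Tek was called higher at 100 μg/mL than in SnCs (adjusted p = 0.0446, and 0.0525 with the mouse as a block). Epithelial sums were at most 2.04 CPM. Those of 6 skeletal muscle markers were 104 to 196 CPM in controls and 149 to 360 in SnCs. They were 92 to 148 in FV100 and 67.8 to 119 in FV300, with Myod1 or Myog at 0 in some groups. Neural sums (5 markers) were 34.5 to 79 CPM in controls, 36.7 to 47.5 in SnCs, 66.2 to 93.9 in FV100 and 68.5 to 86.1 in FV300. Against SnCs, 3 fibroblast markers and 1 neural marker were called higher at 100 μg/mL, where 165 of all 15034 genes tested were. At 300 μg/mL 1 of each was called higher, where 113 of the 15034 were. With the mouse as a block, Dcn and Lum at 100 μg/mL and Col3a1 at 300 μg/mL lost this call. The part of all these markers in the results was not tested. Whether fewer cells were in mitosis or each cell held less of these RNAs cannot be told apart in bulk RNA. The mice are given as biological replicates, and p-values measure the spread between these samples.

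The question of the first comparison is how much of the mitotic apparatus SnCs still transcribed. In SnCs 44 of the 57 genes (77.2%) fell below control, with an adjusted p under 0.05 and a log2 fold change under -1, and 0 rose. Among all genes tested 3.95% fell and 4.47% rose by the same thresholds. The test was edgeR's quasi-likelihood test, and the count of rises was also 0 at an unadjusted p under 0.05 and 0 with DESeq2 after adjustment. The median log2 fold change was -3.40, against 0.07 over all genes tested. Every senescent value lay below every control value for 51 of the genes (89.5%), against 12.9% of all genes. Of the 44 genes, 29 were under 10% of their control mean in CPM, with a median of 7.39% and a range of 2.7% to 36%. The summed level of the 57 genes was 2175 to 2476 CPM in controls and 612 to 621 CPM in SnCs, or 26.9% of the control mean. A large part of the sum in SnCs came from Zwint, Bub3 and Ckap5, which were not called, at means of 140, 118 and 108 CPM.

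**Figure D1:**
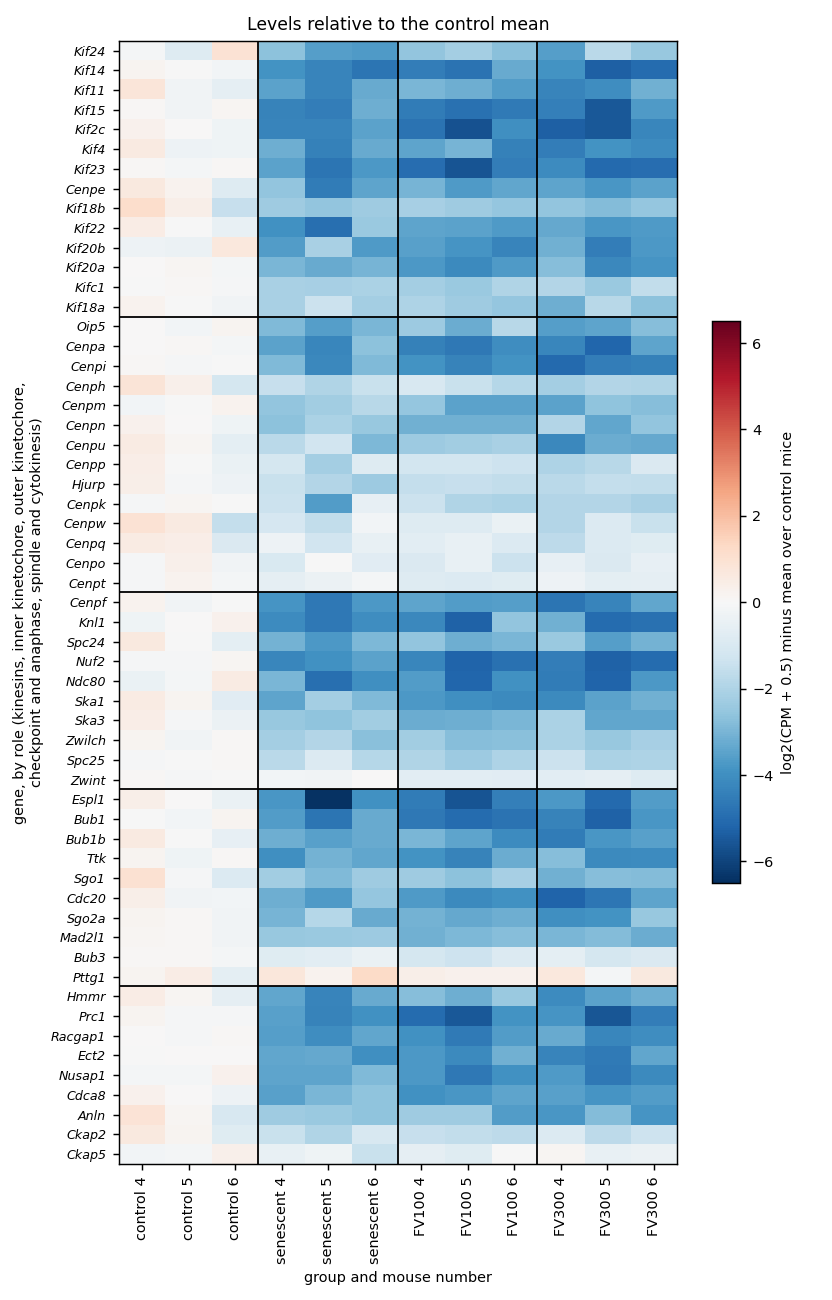
Colours give log2(CPM + 0.5) minus the mean over the 3 control mice for each of the 57 genes (rows, by role) in each of the 12 samples (columns, by group and mouse). Most rows are blue in all 9 samples given etoposide, and Zwint, Bub3, Pttg1, Ckap5, Cenpo and Cenpt stay near the colour of control.

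All 14 mitotic kinesins fell. Kif24, a kinesin of the mother centriole (ENSMUSG00000028438, chromosome 4, 41389632 to 41464901), was at 5.4, 3.14 and 12 CPM in control cells of mice 4, 5 and 6, and at 0.511, 0.0431 and 0 CPM in SnCs of the same numbers. The groups did not overlap, and its log2 fold change of -5.13 ± 1.27 (SE; adjusted p = 0.019) was the lowest of the 57, on 17 counts in the 3 senescent samples. It was -8.18 without senescent mouse 4 and -4.42 without control mouse 6, so its size and rank rest on single samples. Kif18a, which dampens chromosome movements at the metaphase plate, changed least among the kinesins. It fell from 9.73, 7.79 and 6.95 CPM to 1.5, 2.8 and 1.33 CPM, without overlap, a log2 fold change of -2.12 ± 0.56 (adjusted p = 0.0264). Kif11, the plus-end motor that pushes spindle poles apart, and Kif15, which can stand in for it, fell by 4.51 and 4.32 on the log2 scale. The chromokinesins Kif4 and Kif22 fell by 4.16 and 3.73, the microtubule depolymerase Kif2c by 4.19, and the kinetochore motor Cenpe by 3.89. The midzone kinesins Kif23, Kif20a and Kif14 fell by 4.08, 3.13 and 4.85, Kif18b and Kif20b by 3.76 and 3.18, and the minus-end motor Kifc1 by 2.14. Kifc1 shares 51.5% of its 31-base words with Kifc5b, and Kif20a has 61.5% of its exonic bases opposite exons of Brd8 and Cdc23, so their reads are less certain to be their own.

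At the centromere the picture was split, with 5 of 14 genes called lower. Oip5, which helps to place new CENP-A, had the largest fall, from 6.42, 5.54 and 7.33 CPM in control to 0.447, 0.0862 and 0.374 CPM in SnCs. No senescent value reached a control value (log2 fold change -4.37 ± 0.88, adjusted p = 0.00596). CENP-A itself, encoded by Cenpa, fell by 3.49 on the log2 scale, and its chaperone Hjurp by 1.90, keeping 26.8% of its control level. Cenpi fell by 3.40 and Cenpn, which recognises CENP-A nucleosomes, by 2.53. Cenpt, which links centromeric DNA to the NDC80 complex, held most of its level. Its values were 28.4, 34.4 and 26.8 CPM in control and 19.8, 23.1 and 27.6 CPM in SnCs, and the groups overlapped (log2 fold change -0.35 ± 0.22, adjusted p = 0.368). The other 8 genes of this role that were not called, Cenph, Cenpk, Cenpm, Cenpo, Cenpp, Cenpq, Cenpu and Cenpw, had fitted values between -0.55 and -3.08 with adjusted p between 0.0807 and 0.446. All of these but Cenpo had a control mean under 10 CPM and standard errors between 0.78 and 1.18. Some of them were called lower in other fits: Cenph and Cenpu with DESeq2, Cenpm and Cenpu with no low-count filter, Cenpm with the 2 groups alone, and Cenph with offsets for single-transcript sequence or without control mouse 6.

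**Figure D2:**
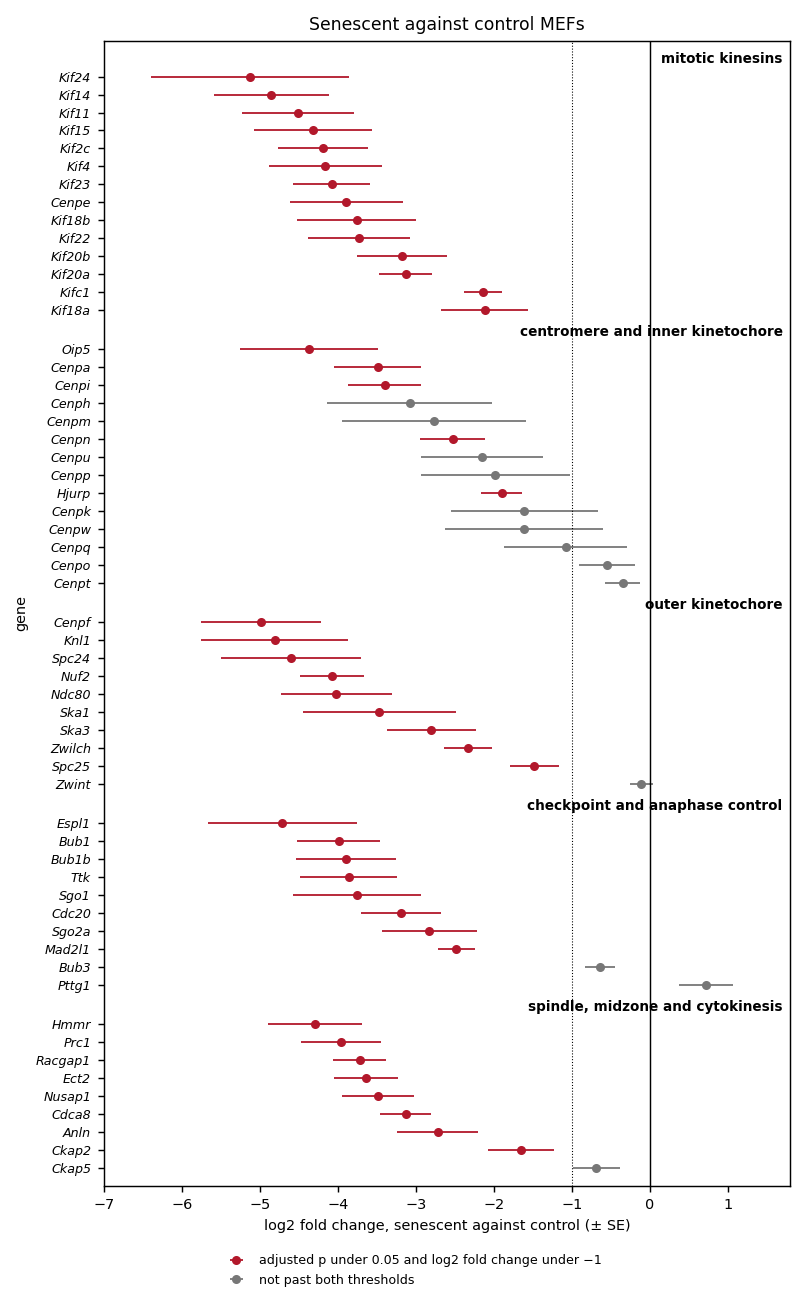
Points are log2 fold changes of senescent against control MEFs and bars are ± 1 SE, by role. Red points passed both thresholds and grey points did not, and the grey points gather in the centromere and inner kinetochore genes, where most error bars are long, and at Zwint, Bub3, Pttg1 and Ckap5, where they are short.

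Of the 10 outer kinetochore genes 9 fell. Cenpf, a large kinetochore and nuclear matrix protein of G2 and mitosis (ENSMUSG00000026605, chromosome 1, 189372752 to 189420315), went from 18, 13 and 14.8 CPM in control to 0.607, 0.129 and 0.68 CPM in SnCs. The gap between the groups was wide (log2 fold change -4.98 ± 0.77, adjusted p = 0.00115). Knl1, the scaffold for checkpoint proteins, fell by 4.81 on the log2 scale. The 4 subunits of the NDC80 complex stood in control at 29.9 ± 9.94 TPM, a level scaled for transcript length (mean ± SD, n = 3), for Ndc80, 33.5 ± 2.75 for Nuf2, 22.3 ± 14.4 for Spc24 and 46.2 ± 4.68 for Spc25. In SnCs they were at 1.81, 1.9, 0.487 and 17.2 TPM. Spc25 thus kept 36% of its control CPM while the other 3 subunits kept 3.99% to 6.11%, and Spc25 is also the subunit with 52.5% of its exonic bases opposite exons of Nostrin. Zwilch, of the complex that recruits dynein, fell by 2.33, and Ska1 and Ska3, which track microtubule ends, by 3.47 and 2.80. Ska3 has 51.8% of its exonic bases opposite Mrpl57 and Sap18. The part of these overlaps in the levels was not tested. Zwint, a partner of Knl1 and the most abundant of the 57 per length in control (173 ± 6.23 TPM), stayed. It was at 161, 145 and 147 CPM in control and at 134, 129 and 156 CPM in SnCs, with overlapping groups and a log2 fold change of -0.11 ± 0.15 (adjusted p = 0.719, 95% interval -0.44 to 0.21).

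Of the checkpoint and anaphase genes 8 of 10 fell. Espl1, which encodes separase, the protease that cuts cohesin, was at 55.8, 44.4 and 32 CPM in control and at 2.68, 0 and 2.31 CPM in SnCs. The groups lay far apart, and its log2 fold change was -4.71 ± 0.95 (adjusted p = 0.00609). Pttg1, which encodes securin, the inhibitor of separase, did not fall with its target. Its values were 16.1, 20.3 and 9.07 CPM in control and 24, 16.8 and 34.4 CPM in SnCs, which overlap, and its log2 fold change of 0.72 ± 0.35 did not pass the test (adjusted p = 0.213). The checkpoint kinases Bub1 and Ttk fell by 3.99 and 3.86 on the log2 scale, Bub1b by 3.89 and Mad2l1, the core inhibitor of Cdc20, by 2.48 (adjusted p = 4.8e-05). Cdc20, which activates the anaphase-promoting complex, fell by 3.19, and the protectors of centromeric cohesion Sgo1 and Sgo2a by 3.76 and 2.83. Cdc20 shares 22.7% of its 31-base words with Gm7856, and 25.6% of the exonic bases of Sgo2a lie opposite another gene. Bub3, which also has roles outside mitosis, was lower by 0.64 ± 0.19 with an adjusted p of 0.0404, short of the fold threshold (adjusted p = 0.0592 with the mouse as a block), from 190, 189 and 169 CPM to 105, 115 and 133 CPM.

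Of the spindle, midzone and cytokinesis genes 8 of 9 fell. Hmmr, a spindle assembly factor, went from 21, 16.9 and 9.77 CPM to 1.02, 0.302 and 1.09 CPM, again without overlap (log2 fold change -4.29 ± 0.60, adjusted p = 0.000571). Racgap1, a subunit of centralspindlin with Kif23, had the smallest adjusted p of the 57 (3.23e-05) and a log2 fold change of -3.72, and Ect2, the exchange factor that it recruits to start the cleavage furrow, fell by 3.64. The antiparallel bundler Prc1 fell by 3.96, Nusap1 by 3.48, Cdca8 of the chromosomal passenger complex by 3.13, the furrow scaffold Anln by 2.72 and Ckap2 by 1.65. Ckap5, a microtubule polymerase that also acts in interphase, was at 151, 157 and 213 CPM in control and at 122, 139 and 62.9 CPM in SnCs. Each senescent value lay below each control value, but its log2 fold change of -0.69 ± 0.30 did not pass the test (adjusted p = 0.164).

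Of the 44 calls, 25 held in all 18 fits tried, and 17 were of genes too low in some sample for a filter of 10 counts in every sample. Calls were also lost when a single mouse was left out. Ska1 lost its call without control mouse 4 (adjusted p = 0.13) or 5 (0.101), or without senescent mouse 4 (0.132), 5 (0.053) or 6 (0.0874), and with the mouse as a block (0.0667). Kif18a lost it without control mouse 4 (0.0971) or 5 (0.0703), or without senescent mouse 4 (0.104) or 6 (0.0712). Ckap2 lost it without control mouse 4 (0.0952) or 5 (0.0587), or without senescent mouse 4 (0.0632) or 5 (0.0665). Kif24 lost it without control mouse 6 (0.0632) or senescent mouse 5 (0.0731), and Sgo1 without control mouse 4 (0.0666). The log2 fold changes of these 5 genes stayed at -1.31 or lower in those fits.

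A further fact bears on the error of these values. RSEM divides reads among transcripts, and levels differed between libraries with the share of a gene's exonic bases that belongs to a single annotated transcript. Over the 57 genes, the difference between the libraries 5(2) and 5(1) of control mouse 5, on the log2(CPM + 0.5) scale, had a Pearson's r of 0.58 with that share, across genes of 1 pair of libraries. The difference between control mouse 6 and the other control mice had an r of -0.52. In the 12 genes with over 80% of such sequence the median difference of 5(2) minus 5(1) was 1.22, as it was 1.01 in the 3699 such genes of all those tested, while in the 27 genes under 50% it was -0.56. Sgo1 was at 1.38 and 6.57 CPM in these libraries and Knl1 at 34.7 and 13.4 CPM. The median fold change in SnCs was nearly equal in the 3 classes, at -3.40 under 50%, -3.31 from 50% to 80% and -3.42 above, with 21 of 27, 14 of 18 and 9 of 12 genes called.

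**Figure D3:**
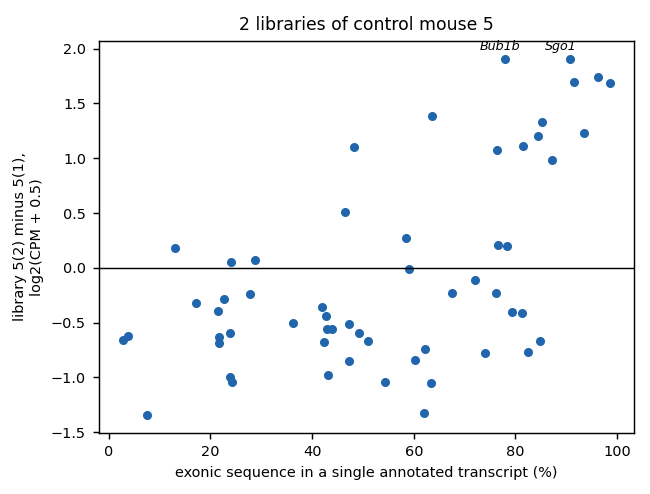
Each point is 1 of the 57 genes, the x axis is the share of its exonic bases held by a single annotated transcript (%) and the y axis the difference between the libraries 5(2) and 5(1) of control mouse 5 in log2(CPM + 0.5). Genes to the right tend to be higher in library 5(2), with Sgo1 and Bub1b at the top (1.91 each).

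Other genes of the same processes did not all move with the 57. Of 21 other kinetochore and checkpoint genes 9 fell (median -1.47), from Kntc1, a partner of Zwilch, at -4.41 ± 0.72 (adjusted p = 0.00164) to Cenpx at 0.39 ± 0.37 (adjusted p = 0.579). Of 25 other spindle and cytokinesis genes 15 fell (median -2.02), Iqgap3 most, at -4.11 ± 0.49 (adjusted p = 0.000204), while Psrc1, a microtubule-binding protein, rose by 1.3 ± 0.18 (adjusted p = 0.000446), from 35.7, 41.4 and 42.5 CPM to 86.7, 94.8 and 113 CPM. Of 8 condensin subunits 7 fell (median -2.82), with Ncapg2 lowest at -3.84 ± 0.37, while Ncaph2, at -0.74 ± 0.20, did not reach the fold threshold (adjusted p = 0.0314). Of 13 cohesin genes 1 fell (median -0.47), Cdca5, which encodes sororin, by 3.07, where 3.95% of all genes fell. All 13 values were negative, against 45.5% of all genes, and the lowest, at -3.49, was not called. Of 18 subunits and partners of the anaphase-promoting complex 2 fell (median -0.29), the E2 enzyme Ube2c by 3.95 and the inhibitor Fbxo5 by 3.02, whose call was lost with the mouse as a block (adjusted p = 0.0579). Pmf1, of the kinetochore list, lost its call likewise (0.0813). Of 16 genes of the DREAM and MuvB complexes and their partner transcription factors, 5 fell (median -0.66): the G2/M activators Foxm1 (-3.86) and Mybl2 (-4.21), Lin9 (-2.31), Rbl1 (-2.27) and Tfdp1 (-1.39). In these short lists the genes that fell were named after their values were seen. Of 30 transport and other kinesin genes outside the 57, 0 fell and 1 rose, where 4.47% of all genes rose. This was Klc4, by 1.19 ± 0.19 (adjusted p = 0.00146), and the list had a median of 0.58, with 5 values negative and 9 at an unadjusted p under 0.05. Kif17 was at 0 in all control samples and had 44 counts in SnCs, at least 16.7-fold higher against a floor of 3 counts over the control group, without passing the test (adjusted p = 0.0723).

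**Figure D4:**
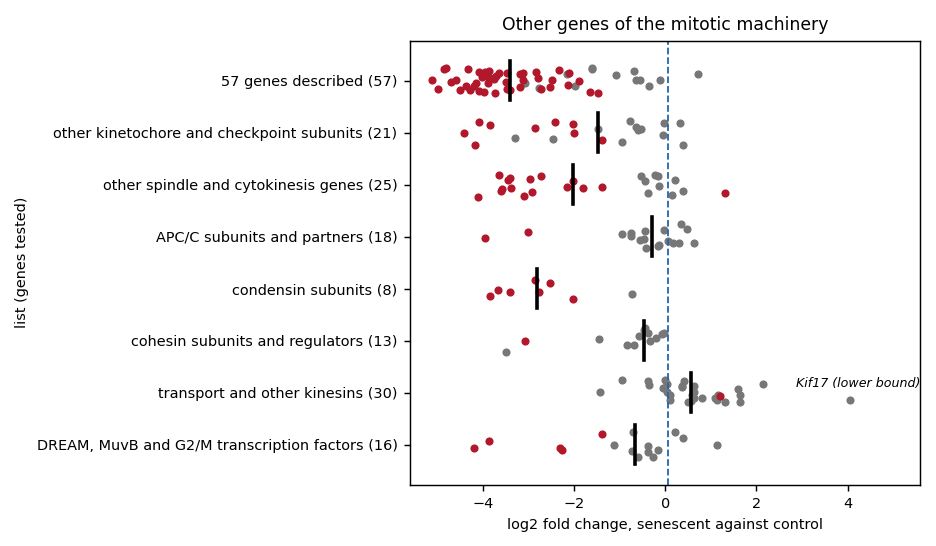
Points are log2 fold changes of senescent against control MEFs for the 57 genes and 7 further lists, red where both thresholds were passed. Black bars are the median of each list and the dashed line the median of all genes tested (0.07). Most condensin points are red and lie to the left, as for the 57 genes. Among the transport and other kinesins 1 point is red, 5 lie under 0, and Kif17 is drawn at its lower bound of 4.06.

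The next comparison asks whether fucoidan changed these genes in SnCs. None of the 57 was called at 100 μg/mL, where 1.60% of all genes fell. By edgeR's test 15 of the 57 had an unadjusted p under 0.05, all lower. By DESeq2 14 lower and 2 higher genes did, and it called 1, Ska1. The edgeR count was 2 of 55 with only the 2 groups compared and 4 to 15 with a mouse left out. The share of all genes at that unadjusted p was not computed. The median log2 fold change was -0.47, against -0.02 over all genes, and 42 of 57 were negative (73.7%), against 50.8% of all genes. The count of negative values was 37 with DESeq2, 37 with RLE factors and 32 without senescent mouse 4. With a senescent mouse left out, the median of the 57 was -0.25 (mouse 5 or 6) or -0.31 (mouse 4). The median over all genes also moved in those fits, to 0.166 without mouse 5, 0.137 without mouse 6 and 0.167 without mouse 4. All 3 treated values lay below all 3 untreated values for 12 genes (21.1%), against 15.0% of all genes. Ska1 had the lowest fold change. It was at 0.32, 1.38 and 0.68 CPM in SnCs and at 0.157, 0.0379 and 0 CPM in FV100, without overlap, but this rests on 62 and 6 counts in all, a ratio of 10.7 with a counting interval of 4.67 to 30.4 (log2 fold change -3.47 ± 1.12, adjusted p = 0.101). Kif24 had the highest, at 0.511, 0.0431 and 0 CPM in SnCs and 0.595, 0.909 and 0.484 CPM in FV100, on 17 and 57 counts, and its groups overlapped (1.77 ± 1.17, adjusted p = 0.438).

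Zwint, which SnCs had kept, was the only gene of the 57 with an adjusted p under 0.05 at the lower dose. Its values fell from 134, 129 and 156 CPM in SnCs to 93.7, 93.7 and 89.3 CPM in FV100 and 95, 98.8 and 84.2 CPM in FV300. No treated value overlapped an untreated value at either dose. The log2 fold changes were -0.60 ± 0.15 (adjusted p = 0.0457) and -0.59 ± 0.15 (adjusted p = 0.0671), under the fold threshold. The adjusted p at the lower dose ranged from 0.00961 to 0.259 over the alternatives, was 0.104 or more whenever a mouse was left out, and was 0.0742 with the mouse as a block.

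At 300 μg/mL 1 of the 57 genes was called, Cenpi, and it was lower, where 0.885% of all genes fell. Cenpi (ENSMUSG00000031262, X chromosome, 133208806 to 133263392) encodes an inner kinetochore subunit that forms a complex with the products of Cenph, Cenpk and Cenpm. It was at 29.4, 26.7 and 27.5 CPM in control, 3.42, 1.08 and 3.36 CPM in SnCs, 1.41, 0.909 and 1.42 CPM in FV100 and 0.349, 0.747 and 0.871 CPM in FV300. The FV300 values lay below all values of the other groups. The log2 fold change against SnCs was -2.00 ± 0.47 (adjusted p = 0.0488). This call was lost in 5 of the 6 fits that left out a mouse (adjusted p 0.115 to 0.144, except 0.022 without senescent mouse 5) and was also lost with the mouse as a block, at 0.088. DESeq2 called 3 genes, Cenpi, Cenpu and Nuf2. The lowest fold change was that of Cenpu, a further inner kinetochore subunit, at 2.14, 3.28 and 0.714 CPM in SnCs and 0, 0.462 and 0.415 CPM in FV300. Its groups did not overlap and its fitted value was -2.78 ± 0.85 (adjusted p = 0.122). Kif24 again had the highest value, at 0.0388, 1.42 and 0.664 CPM in FV300 (1.88 ± 1.17, adjusted p = 0.5). The median over the 57 genes was -0.58, against 0.00 over all genes, and 47 of 57 were negative (82.5%), against 49.6% of all genes. It was -0.24 without FV300 mouse 5. All 3 FV300 values lay below all 3 values of SnCs for 9 genes (15.8%), against 10.2% of all genes. The comparisons of FV100 and FV300 share their senescent samples, so their values are not independent of each other.

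**Figure D5:**
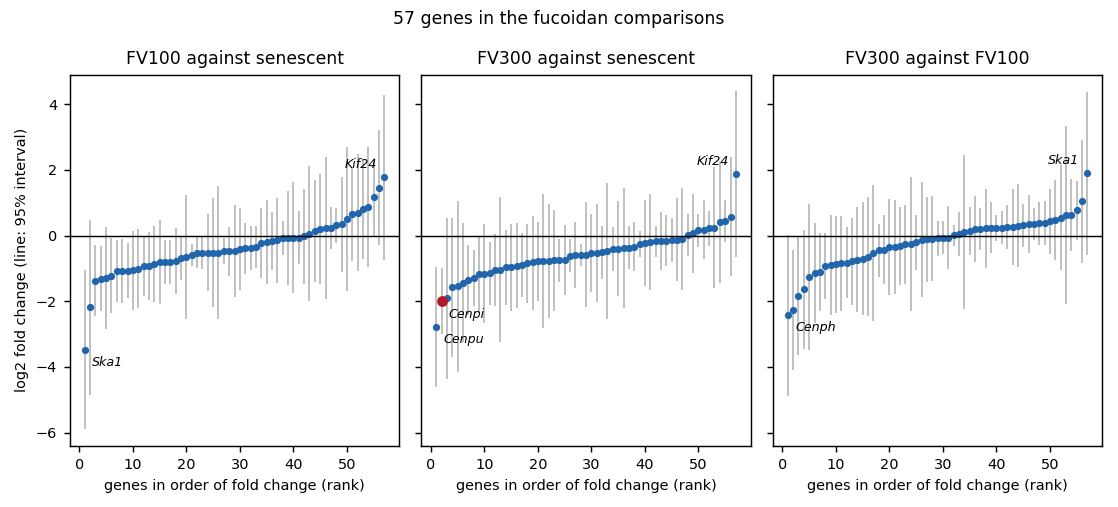
Points are log2 fold changes of the 57 genes in order of size, with 95% intervals as lines, for FV100 and FV300 against SnCs and for FV300 against FV100. Cenpi at 300 μg/mL is the only red point (called), and more points lie under 0 than above it in the comparisons with SnCs.

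The companion lists held few calls in these comparisons. Tpx2, the activator of Aurora A on spindle microtubules, which was not chosen by the naming rule but after its values were seen, was called at both doses. It was at 223, 218 and 217 CPM in control, 27, 33.3 and 38.7 CPM in SnCs, 13.5, 10.9 and 19.6 CPM in FV100 and 16.9, 14.4 and 16.2 CPM in FV300. The control, senescent and treated values did not overlap. The log2 fold changes against SnCs were -1.17 ± 0.22 (adjusted p = 0.0126) and -1.06 ± 0.22 (adjusted p = 0.0282). Kif26b, named likewise, was the only gene of the transport and other kinesin list called, higher at 300 μg/mL by 1.16 ± 0.26 (adjusted p = 0.0397). The condensin, cohesin, anaphase-promoting complex, kinetochore and transcription factor lists had 0 calls by edgeR's test at either dose, with 1, 1, 3, 4 and 1 genes at an unadjusted p under 0.05 at 100 μg/mL and 1, 1, 4, 4 and 1 at 300 μg/mL.

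The doses were then compared with each other. By edgeR's test 0 of the 57 genes were called, where 0.00665% of all genes were (1 gene), 2 had an unadjusted p under 0.05 and DESeq2 called 0. The median log2 fold change of FV300 against FV100 was -0.08, against 0.07 over all genes, and was 0.11 among the genes with at least 10 counts in every sample. The lowest was Cenph, whose product shares a complex with that of Cenpi, at 0.595, 0.341 and 0.138 CPM in FV100 and 0, 0.107 and 0.083 CPM in FV300, without overlap and on 32 and 5 counts (-2.42 ± 1.14, adjusted p = 0.97). The highest was Ska1, at 0.157, 0.0379 and 0 CPM in FV100 and 0, 0.285 and 0.498 CPM in FV300, which overlap, on 6 and 20 counts (1.89 ± 1.15, adjusted p = 0.97). The intervals of these differences are wide, from -4.87 to 0.03 for Cenph and from -0.59 to 4.36 for Ska1, so a difference between doses was not detectable at these counts and is not shown to be absent. Zwint, with many counts, had a narrow interval, from -0.32 to 0.33.

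Against control, treated SnCs kept the low levels. In FV100 47 of the 57 genes (82.5%) were lower than control and 0 higher, with a median of -3.81. Of all 15034 genes tested, 9.37% were lower there and 1546 higher. In FV300 46 of the 57 (80.7%) were lower and 0 higher, with a median of -4.02, where 8.11% of all genes were lower and 1484 higher. The counts of higher genes among the 57 were also 0 by edgeR and by DESeq2 at an unadjusted p under 0.05. Of the 44 genes called in SnCs, 44 and 43 were called here, the exception being Kif24 in FV300 (adjusted p = 0.0533). By the same test Cenpm and Cenpu were called at both doses, Bub3 at 100 μg/mL and Cenph at 300 μg/mL, but not in untreated SnCs, where other fits called Cenph, Cenpm and Cenpu. The direct comparisons of each dose with SnCs called none of these 4 genes by edgeR, and DESeq2 called Cenpu at 300 μg/mL. With the mouse as a block Kif24 at 100 μg/mL (adjusted p = 0.0789) and Cenpm at 300 μg/mL (0.0534) were no longer called against control. Summed over the 57 genes, the level was 615 ± 4.99 CPM in SnCs (SD, n = 3), 493 ± 61.8 CPM in FV100 and 537 ± 85.1 CPM in FV300. Zwint, Bub3 and Ckap5 weigh on these sums, at means of 92.2, 84.3 and 126 CPM in FV100 and 92.7, 98.6 and 146 CPM in FV300. These 3 comparisons share their control samples.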

How the data were processed

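Total RNA libraries (TruSeq Stranded, NovaSeq) were made by the authors from 3 mice per group, with 2 libraries for control mouse 5. The submitters' processing notes name FastQC 0.12.1, Trimmomatic, STAR 2.7.11b, RSEM 1.3.1 and GRCm39, and the strand setting of counting is not given in the sources used here. The deposited tables hold RSEM expected counts per gene, which are estimated and not normalized, and TPM, which the authors' RSEM run scaled for transcript length and library size. TPM was used only for levels between genes.

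Expected counts were rounded, and the counts of libraries 5(1) and 5(2) were added up (TPM averaged). Genes passing filterByExpr (minimum count 10, minimum total 15) were fitted over the 4 groups with edgeR 4.0.16 in R 4.3.3 (TMM factors, quasi-likelihood test, limma 3.58.1), with Benjamini-Hochberg adjustment over all 15034 genes. Calls needed an adjusted p below 0.05 together with a log2 fold change beyond 1 in either direction. Intervals are 95%. CPM was taken with TMM factors, and counting intervals cover counting error only. Of the genes listed, 56310 matched GENCODE M39. The script was tested on simulated data. DESeq2 1.42.0, other factors and filters, each mouse left out and corrections for single-transcript sequence were alternatives.

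The 57 genes, the companion lists, the tests and the naming rule were chosen with earlier results of these data known. Full values were given for the genes with the lowest and highest fold change in each role, those called in a fucoidan comparison and the extremes of each such comparison. Companions were named by an extreme of their list or after their values were seen. The sample titles name mice 4, 5 and 6 in every group, so samples of 1 mouse were taken as paired on these labels. The methods name no block, so the fit without it stayed the main one and the block was an alternative. Deviations of same-mouse samples from their group means correlated by a median of -0.006 over 18 pairs (-0.2 to 0.43, over 0.1 in 8).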

Additional observations from a re-analysis of the deposited data

How the results depend on the processing

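For SnCs against control, 40 to 46 genes were called lower under every alternative but 1. A filter of at least 10 counts in every sample kept 27 calls, with a median log2 fold change of -2.85, because it removed low genes. The same filter kept 28 calls for FV100 and 27 for FV300 against control. No result changed direction past its threshold. For FV100 against SnCs, DESeq2 called 1 gene, the test with no low-count filter 2 and the adjusted p alone 1, and the median ranged from -0.58 to -0.25 with a mouse left out. For FV300 against SnCs, DESeq2 and the test with no low-count filter each called 3. RLE factors, the filter of 10 counts, a fit of 2 groups alone and each other handling of control mouse 5 called 0, as did 5 of the 6 fits without a mouse (range 0 to 1), and the cause was not tested. The median ranged from -0.72 to -0.24 with a mouse left out. The median of FV300 against FV100 was -0.15 with DESeq2 and with 2 groups alone, -0.16 with RLE factors, 0.11 with the filter of 10 counts, 0.00 with offsets for single-transcript sequence (with or without the block) and -0.18 to 0.02 with a mouse left out. The median of FV100 against control ranged from -3.78 to -3.40 with a mouse left out. The replicate block on mouse number called 43 genes for SnCs against control (median -3.49), losing Ska1, and 0 for FV300 against SnCs, losing Cenpi. With offsets for single-transcript sequence the block called Anln there instead (-1.17, adjusted p = 0.0334). Against control the block lost Kif24 in FV100 and Cenpm in FV300, and it changed no other call of the 57 genes.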
